A study of Rattus norvegicus with 3 samples.

Results

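This comparison sets cells given Met-enkephalin (Met-ENK) against cells given β-END(1-9), a fragment of β-endorphin, gene by gene. FRSK is a rat line of fetal skin keratinocytes. Its cells were plated in dishes, grown in DMEM with serum, and profiled on 1 whole-transcript Affymetrix array per condition. The series holds 3 arrays. The treated cultures received 100 nM Met-ENK or 100 nM β-END(1-9) for 24 h, and the third is labelled only as control, with no vehicle named. Of 15037 named genes, 7519 were kept because their log2 signal, averaged over all arrays, reached 6.41, the median for named genes. At that limit, Slx4ip (mean 6.41, difference 0.12) lay just outside and Fli1 (mean 6.41, difference 0.55) just inside. Every difference given without another name is the log2 signal of the Met-ENK array minus that of the β-END(1-9) array. Apart from its part in the average used for the filter, the control array served to show which peptide array had moved. With 1 array per peptide there is no spread between cultures, so no test, standard error or interval exists for any difference, and each value describes these 2 arrays.

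Met-ENK is an opioid peptide cut from proenkephalin, the product of Penk, and β-endorphin is cut from pro-opiomelanocortin, the product of Pomc. Both peptides begin with the same enkephalin sequence, and β-END(1-9) carries further residues at its end. Opioid peptides signal through receptors coupled to inhibitory G proteins, and Met-ENK also binds the opioid growth factor receptor, encoded by Ogfr. Keratinocytes are known to make opioid peptides and to carry opioid receptors. The comparison made here is the only pair of peptides in the series (1 pair), at matched dose and time.

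The cells carried keratinocyte markers on both peptide arrays. All 12 measured genes of the basal keratinocyte list passed the filter, among them Krt14, the keratin of basal cells, at 16.63 with β-END(1-9) and 16.61 with Met-ENK. Of the markers of other cell types, 8 of 12 for fibroblasts, 7 of 8 for melanocytes, 11 of 11 for endothelium and 14 of 17 for immune cells did not exceed the 23 background probe sets, which spanned 2.51 to 7.57 (the background range), on any array. The fibroblast list includes Vim, an intermediate filament gene that cultured epithelial cells also express, at 14.24 with β-END(1-9) and 13.90 with Met-ENK. Its other members above that range on some array were Col3a1 (8.53 on every array), Col1a1 (8.28 with β-END(1-9) and 8.22 with Met-ENK) and Fbln1 (7.47 and 7.85). Whether other cells were present in the cultures was not tested. Overall signal was alike on both peptide arrays, with cluster medians of 5.97 for β-END(1-9) and 5.96 for Met-ENK. Signals were exactly equal on both for 21.5% of the genes passing the filter. The 399 probe sets named as positive controls had a median difference of -0.11, and the 1153 named as negative controls one of 0.02. Relative to control, the positive controls were at -0.23 with Met-ENK and -0.12 with β-END(1-9).

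Genes that were lower with Met-ENK included subunits of ribosomes, of the respiratory chain and of the proteasome core, together with single regulators such as Cdkn2d, Keap1 and Stub1. Genes that were higher with Met-ENK included Kdm1b, Ptbp2 and Kif3b. In most genes at least 1.5-fold higher, the control array lay between the peptide arrays. The β-END(1-9) array was more often the further from control. A difference of 1.5-fold, 0.58 on the log2 scale, was reached upwards by 142 of 7519 genes (1.89%) and downwards by 203 (2.7%). Of these, 91 higher and 136 lower genes were above the background range on both peptide arrays. At 2-fold the counts were 6 and 16. Differences of any size leaned the other way, with 3417 genes (45.4%) higher and 2485 (33%) lower, around a median of 0. From the 5th to the 95th percentile, the differences ran from -0.47 to 0.45.

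The gene lowest with Met-ENK was Adat1, which encodes a deaminase that edits tRNA, at 7.58 with β-END(1-9), 6.28 with Met-ENK and 7.06 in control. Cdkn2d, an inhibitor of the cell cycle kinases CDK4 and CDK6, had 8.16 with β-END(1-9), 6.86 with Met-ENK and 8.08 in control. Ppil1, a peptidyl-prolyl isomerase of the spliceosome, had 10.21, 8.93 and 9.96 in the same order. For Cdkn2d and Ppil1 the Met-ENK array was the one away from control, while for Adat1 the control lay between the peptides. On the Met-ENK array Adat1 and Cdkn2d lay within the background range, and Ppil1, above it on every array, was 2.44-fold lower with Met-ENK. Chrm3, the M3 muscarinic acetylcholine receptor gene, had 7.09 with β-END(1-9) and 5.87 with Met-ENK, both within the background range. Dad1, a subunit of the enzyme that attaches N-glycans to proteins, had 11.97 with β-END(1-9), 10.78 with Met-ENK and 12.07 in control. Dad1 was thus above background on every array and low on 1. Cdkn3, a phosphatase of cyclin-dependent kinases, had 8.39 with β-END(1-9), 7.24 with Met-ENK (within the background range) and 8.78 in control.

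Several other genes at least 2-fold lower handle proteins. Stub1, a ubiquitin ligase that works with chaperones, had 8.75 with β-END(1-9), 7.64 with Met-ENK and 8.79 in control. Dnajc19, a co-chaperone of import into mitochondria, had 10.85, 9.80 and 11.04 in that order. Keap1, the repressor that sends the antioxidant factor NRF2 to degradation, had 9.30, 8.25 and 9.27. In these 3 genes the β-END(1-9) array lay close to control and the Met-ENK array below both. The same order held for Plgrkt (-1.17), a plasminogen receptor, and Jagn1 (-1.03), a protein of the endoplasmic reticulum. Plgrkt lay within the background range on the Met-ENK array (6.76). Uqcr11 (-1.09), a subunit of complex III, and Rabac1 (-1.03), a Rab-binding protein, were also lower on the β-END(1-9) array than in control. Ifi27, an interferon-induced gene, had 10.59 with β-END(1-9), 9.52 with Met-ENK and 10.34 in control. Pih1d2 (-1.08) differed from the rest, since the Met-ENK and control arrays both read 6.74, within the background range, and the β-END(1-9) array read 7.82. Fam241b completed the 16, at 10.82 with β-END(1-9), 9.78 with Met-ENK and 10.12 in control.

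The 6 genes at least 2-fold higher with Met-ENK include nuclear regulators and a microtubule motor. Kdm1b, a histone demethylase, had 6.16 with β-END(1-9), 7.26 with Met-ENK and 6.69 in control, all within the background range. Ptbp2, a splicing regulator, had 7.65 with β-END(1-9), 8.71 with Met-ENK and 8.62 in control. Kif3b, a motor subunit of kinesin-2, had 9.43, 10.49 and 10.03 in that order. Ptbp2 was thus low on the β-END(1-9) array alone, and for Kif3b the peptides lay on opposite sides of control. Zfp445, a zinc finger protein of imprinted regions, had 8.92 with β-END(1-9), 9.97 with Met-ENK and 9.71 in control. Ahdc1, a DNA-binding protein, had 7.10, 8.14 and 8.15, and St7l had 6.44, 7.48 and 7.83. In these 3 genes too, the Met-ENK array was nearer to control than the β-END(1-9) array was. St7l lay within the background range on both peptide arrays and Ahdc1 on the β-END(1-9) array, so 3 of the 6 genes were above it on both.

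Below 2-fold, the higher genes whose signals were above background on both peptide arrays were led by Entpd7 (0.99), a nucleotide hydrolase of internal membranes, and Mfsd6 (0.97), a membrane transporter homolog. Mfsd6 had 11.47 with β-END(1-9), 12.44 with Met-ENK and 11.31 in control, so that here it was the Met-ENK array that stood high. Zdhhc21 (0.92), an enzyme that attaches palmitate to proteins and is known for its role in hair follicles, had 11.29, 12.21 and 11.77 in that order. Slc35a5 (0.92), of the nucleotide sugar transporter family, Ralgdsl2 (0.90) and Ldlrad4 (0.90), an inhibitor of TGF-β signalling, followed. Of the 15 genes highest with Met-ENK, 7 stayed within the background range on both peptide arrays, among them Gnat1 (0.99), Man1c1 (0.96), Plppr2 (0.95), Sumf1 (0.93) and Zfat (0.93). Pitpnm2 (0.95) and C14h4orf19 (0.93) were above it on the Met-ENK array alone. Of the 15 lowest, 1 stayed within that range and 9 were above it on both peptide arrays.

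**Figure D1:**
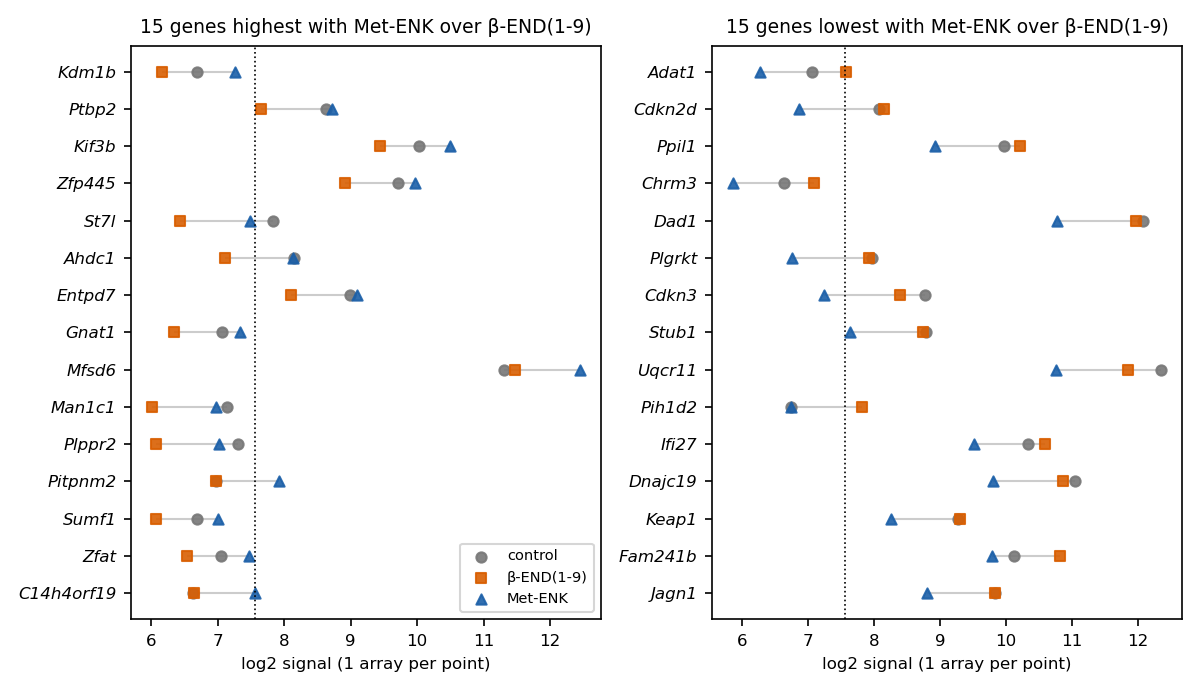
Log2 signals of the 15 genes with the largest positive (left) and the 15 with the largest negative (right) difference between the peptide arrays, with 1 point per array and no error bars because each group has 1 array. The dotted line marks the highest background probe set (7.57). On the right the triangles of Met-ENK mostly lie left of squares and circles that nearly coincide, as for Keap1 and Jagn1, and on the left the squares of β-END(1-9) are mostly the ones set apart, as for Ptbp2 and Ahdc1.

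A microRNA gene was also among the higher genes. Mir3584 had 7.59 with β-END(1-9), 8.50 with Met-ENK and 8.56 in control, a difference of 0.91. Its mature sequences in RefSeq (GRCr8, minus strand) are shown because they identify which small RNA the gene gives rise to, with the seed (bases 2 to 8) in capitals.
rno-miR-3584-5p (chr1:256727582-256727599): gGGAGGAGuccaggaggc
rno-miR-3584-3p (chr1:256727542-256727560): gCCCGCAUcucuggauccc
The arms have different seeds. The hairpin lies inside the span of the protein-coding gene Itprip and of a long noncoding RNA in GRCr8, so the signal of this probe set cannot be assigned to the mature microRNA. The other 4 microRNA genes passing the filter differed by -0.13 (Mir3542), -0.06 (Mir3577), -0.05 (Mir6315) and 0 (Mir3102).

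Relative to the control array, the 2 directions differed. The Met-ENK array was said to have moved where it lay at least 0.58 from control and the β-END(1-9) array under 0.29. That held for 118 of the 203 lower genes (58.1%) and for 15 of the 142 higher genes (10.6%). The β-END(1-9) array had moved, by the same limits, for 15 lower genes (7.39%) and 42 higher genes (29.6%). Another 15 lower and 23 higher genes had the peptides on opposite sides of control, each at least 0.29 away. The remaining 55 lower and 62 higher genes met none of these descriptions. The lower genes had medians of -0.78 (Met-ENK) and -0.06 (β-END(1-9)) relative to control. For the higher genes these medians were 0.28 and -0.47. The control array lay between the peptide arrays for 101 higher genes (71.1%) and 58 lower genes (28.6%). Both differences from control use the same control array, whose own error enters both.

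**Figure D2:**
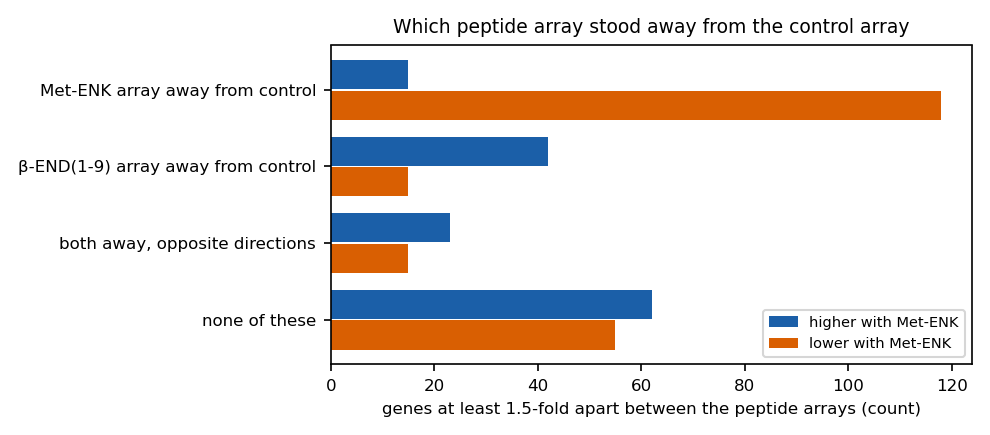
Counts of genes at least 1.5-fold apart between the peptide arrays, by which peptide array stood away from the single control array. The longest bar is that of 118 genes that were lower on the Met-ENK array alone, and among the higher genes the β-END(1-9) array stood away for 42.

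Most genes for the ribosome and the respiratory chain were lower with Met-ENK than with β-END(1-9), the majority by less than 1.5-fold. These genes form 4 lists, of which the ribosomal ones serve protein synthesis in the cytosol and in mitochondria and the respiratory ones serve ATP production. Of their 216 genes passing the filter, 183 were lower, 14 higher and 19 equal, and 32 (14.8%) were at least 1.5-fold lower against 2.34% of the 7303 genes outside these lists. None was at least 1.5-fold higher (0 of 216, against 1.89% of all genes). At any size, 33% of all genes passing the filter were lower. The median difference over the 216 genes was -0.31, against 0 for all genes passing the filter. Against control, the medians were -0.43 for Met-ENK and -0.11 for β-END(1-9), beside -0.23 and -0.12 for the positive control probe sets, whose part in this was not tested. On the Met-ENK array 70 of the 216 were at least 1.5-fold below control, where 6.02% of all genes passing the filter were, and on the β-END(1-9) array 6 were, where 2.27% of all genes were.

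Among 68 cytosolic ribosomal protein genes, 65 were lower with Met-ENK and 5 (7.35%) were at least 1.5-fold lower, with a median of -0.32. Over all genes passing the filter, 33% were lower and 2.7% at least 1.5-fold lower. Rpl11, a protein of the large subunit, had 16.33 with β-END(1-9), 15.66 with Met-ENK and 16.52 in control. Rpl19 had 16.21, 15.56 and 16.48 in that order, and Rpl35 had 15.60, 14.96 and 15.78. Each of these genes was lowest on the Met-ENK array and highest in control. Rpl34 (-0.60) and Rpl38 (-0.60) were the remaining members past 1.5-fold, and all 5 belong to the large subunit. With the trend along gene span removed, Rpl34, Rpl35 and Rpl38 were below 1.5-fold, at -0.53, -0.56 and -0.52. Rpl34 was also below it after quantile normalization (-0.56), and Rpl38 after centring each array on its median (-0.582). The medians of the large and small subunits were nevertheless alike, at -0.33 over 42 genes and -0.31 over 26. Rps26 (0.13), Rpl27a (0.04) and Rps28 (0.02), the members that were higher, are named after their values were seen. Ribosomal protein genes have many near-identical processed copies in the genome, which array probes may also detect.

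Mitochondrial ribosomal protein genes showed a difference between the subunits. In the large subunit 34 of 40 genes were lower, 8 (20%) of them at least 1.5-fold, with a median of -0.33. In the small subunit 13 of 22 were lower, 2 (9.09%) at least 1.5-fold, with a median of -0.06. The shares over all genes passing the filter were 33% lower at any size and 2.7% at least 1.5-fold lower. Over all measured members the medians were -0.32 for the large and -0.16 for the small subunit, a smaller gap. The subunit lists were drawn up after the differences had been seen, and the contrast between them was not tested. Mrpl53 had 10.14 with β-END(1-9), 9.21 with Met-ENK and 10.75 in control, and Mrpl55 had 10.59, 9.84 and 11.17. In these 2 genes the β-END(1-9) array was also well below control. Mrpl20 (-0.73), Mrpl34 (-0.72), Mrpl18 (-0.69), Mrpl23 (-0.68), Mrpl27 (-0.65) and Mrpl57 (-0.63) were the other large subunit genes past 1.5-fold. Of these, Mrpl34 and Mrpl23 lay within the background range on both peptide arrays. Mrpl57 was below 1.5-fold with the trend along gene span removed (-0.53). Mrps21 had 12.52 on both the β-END(1-9) and the control array and 11.85 with Met-ENK. Mrps14 (-0.64) and Aurkaip1 (-0.69), a protein of the small subunit, were also past 1.5-fold. Aurkaip1 was in neither subunit list, so the small subunit count and medians above leave it out.

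In the respiratory chain the lower signals extended over every complex. Over all genes passing the filter, 33% were lower and 2.7% at least 1.5-fold lower. Complex I takes electrons from NADH, and 26 of its 30 subunit genes were lower, 4 equal and 0 higher, with a median of -0.35. Ndufb5 had 13.01 with β-END(1-9), 12.18 with Met-ENK and 13.13 in control, and Ndufb4 had 12.18, 11.41 and 12.18. Ndufa9 (-0.62) was the remaining subunit past 1.5-fold. The assembly factor Ndufaf5, at 8.06 with β-END(1-9) and 7.12 with Met-ENK, had the largest difference of the list (-0.94). Its Met-ENK value lay within the background range. All 5 genes of complex II and its assembly were lower, between -0.49 and -0.15.

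Complex III passes electrons on to cytochrome c, and 8 of its 10 genes (cytochrome c included) were lower, with a median of -0.28. Uqcr11 had 11.85 with β-END(1-9), 10.76 with Met-ENK and 12.34 in control, and the core protein gene Uqcrc1 had 10.87, 10.14 and 11.32. Uqcrq (-0.65) was the third member past 1.5-fold. In complex IV, cytochrome oxidase, 14 of 20 genes were lower with a median of -0.29, led by Cox19 (-0.73), a factor for its assembly, Ndufa4 (-0.66) and Cox7a2 (-0.60). Cox19 was the exception in its order, since it had 8.22 with β-END(1-9), above the control value of 7.82, and 7.49 with Met-ENK. The last of these lay within the background range. ATP synthase had the lowest median of the chain, -0.42, with 13 of 14 genes lower and 6 (42.9%, against 2.7% of all genes) at least 1.5-fold lower. Atp5f1d, the delta subunit, had 11.68 with β-END(1-9), 10.73 with Met-ENK and 11.71 in control. Atp5po, in the stalk of the enzyme, had 10.13, 9.32 and 10.13. Both were thus at the control level with β-END(1-9). Atp5mk (-0.77), Atp5f1e (-0.76), Atp5mg (-0.68) and Atp5pd (-0.60) made up the rest. With the trend along gene span removed, Atp5pd was below 1.5-fold (-0.54).

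The proteasome degrades proteins marked with ubiquitin in a barrel-shaped 20S core, which the 19S regulator caps and feeds. All 14 core genes were lower with Met-ENK, between -0.79 and -0.07, with a median of -0.44. Of 20 genes of the 19S regulator, 9 were lower, 7 equal and 4 higher, with a median of 0. After quantile normalization and after loess on level, 16 of the 20 were lower, with medians of -0.06 and -0.08. The core medians were then -0.49 and -0.50. Psma7 had 14.66 with β-END(1-9), 13.87 with Met-ENK and 14.75 in control. Psmb5, the subunit with chymotrypsin-like activity, had 11.23, 10.51 and 11.19, and Psmb4 had 13.61, 12.90 and 13.77. The 3 genes were near control with β-END(1-9) and were the members past 1.5-fold. The COP9 signalosome, a related complex that acts on ubiquitin ligases, had 7 of 10 genes lower and a median of -0.24. Over the whole list of 50 genes, 34 were lower and 3 (6%, against 2.7% of all genes) at least 1.5-fold lower, with a median of -0.16. The core and regulator lists were likewise separated after the values were seen.

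**Figure D3:**
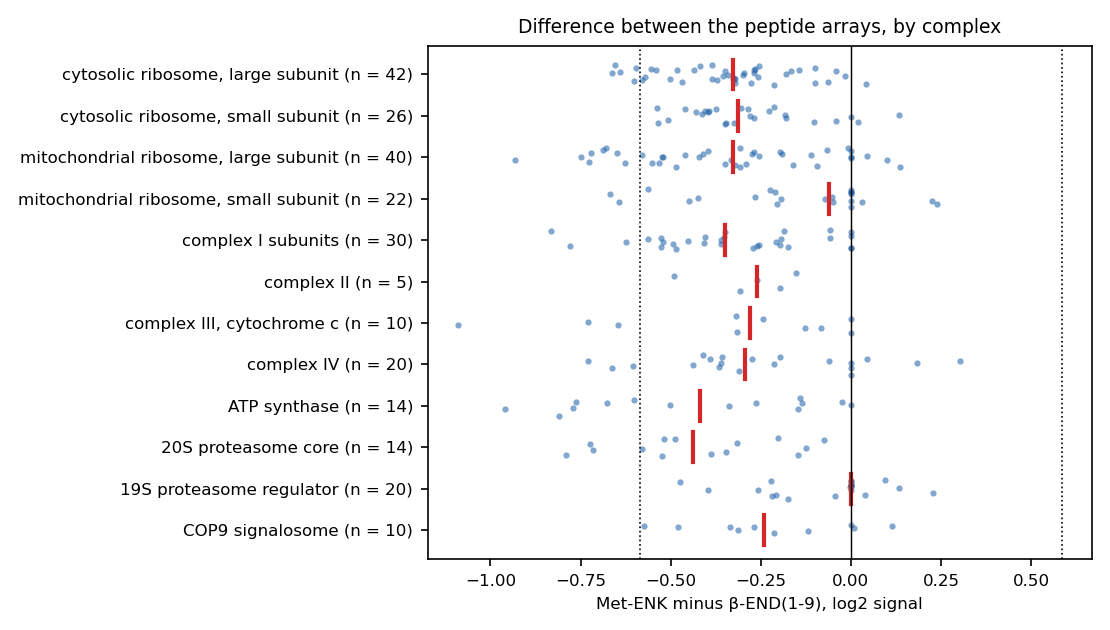
Difference between the peptide arrays for each gene of 12 complexes or subunits (points, 1 per gene), with the median in red and dotted lines at 1.5-fold. In these deposited values the points of the 20S proteasome core all lie left of 0 (median -0.44), whereas those of the 19S regulator surround 0. The large mitochondrial subunit (median -0.33) lies further left than the small one (median -0.06).

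Other genes of protein and RNA synthesis had medians closer to 0. Of 56 translation factors and tRNA synthetases, 29 were higher and 20 lower, with a median of 0.01, but 35 were lower with a median of -0.07 after loess on level. At least 1.5-fold lower were 3 of 56 (5.36%, against 2.7% of all genes), namely Eif3m (14.87 with β-END(1-9) and 14.17 with Met-ENK), Eef1b2 (15.33 and 14.65) and Eif3f (12.32 and 11.71). Core spliceosome genes had 25 of 49 lower and 17 higher with a median of -0.03. Snrpd2, a ring protein of the spliceosomal particles, was the 1 of 49 (2.04%) at least 1.5-fold lower (13.09 with β-END(1-9) and 12.40 with Met-ENK). Subunits of RNA polymerases and Mediator had 28 of 52 lower and 15 higher with a median of -0.06. Polr2i (-0.76), within the background range on the Met-ENK array, was the 1 of 52 (1.92%) at least 1.5-fold lower. In the deposited values, the shares of these last 2 lists were below the 2.7% of all genes.

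For each of the 4 ribosomal and respiratory lists, the promoter of the lowest member with an entry in the RefSeq table is shown (Uqcr11 had none), because these genes were lower together. Each runs from 250 bases before to 50 after the gene start in RefSeq (GRCr8), and capitals mark the letters CCGGAAG or their reverse complement, the core that ETS family factors bind.
Rpl11 (chr5:153560753-153561052, minus strand): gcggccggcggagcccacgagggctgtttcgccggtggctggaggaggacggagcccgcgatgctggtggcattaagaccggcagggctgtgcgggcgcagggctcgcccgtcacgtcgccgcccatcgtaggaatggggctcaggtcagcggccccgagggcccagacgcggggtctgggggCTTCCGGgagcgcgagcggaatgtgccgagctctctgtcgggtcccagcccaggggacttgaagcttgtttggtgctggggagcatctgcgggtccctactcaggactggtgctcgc
Mrpl53 (chr4:117172793-117173092, plus strand): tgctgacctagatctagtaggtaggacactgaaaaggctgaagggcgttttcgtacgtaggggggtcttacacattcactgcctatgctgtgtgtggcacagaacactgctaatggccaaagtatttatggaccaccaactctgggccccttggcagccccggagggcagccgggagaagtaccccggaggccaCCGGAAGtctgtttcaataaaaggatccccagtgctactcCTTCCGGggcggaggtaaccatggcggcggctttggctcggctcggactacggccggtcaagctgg
Ndufaf5 (chr3:147961362-147961661, plus strand): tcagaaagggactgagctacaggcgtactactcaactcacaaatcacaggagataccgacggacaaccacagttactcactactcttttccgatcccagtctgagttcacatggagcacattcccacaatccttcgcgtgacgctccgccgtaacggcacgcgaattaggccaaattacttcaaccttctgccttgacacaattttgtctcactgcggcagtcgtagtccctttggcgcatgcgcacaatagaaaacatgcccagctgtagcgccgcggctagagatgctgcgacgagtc
Atp5f1d (chr7:10214301-10214600, minus strand): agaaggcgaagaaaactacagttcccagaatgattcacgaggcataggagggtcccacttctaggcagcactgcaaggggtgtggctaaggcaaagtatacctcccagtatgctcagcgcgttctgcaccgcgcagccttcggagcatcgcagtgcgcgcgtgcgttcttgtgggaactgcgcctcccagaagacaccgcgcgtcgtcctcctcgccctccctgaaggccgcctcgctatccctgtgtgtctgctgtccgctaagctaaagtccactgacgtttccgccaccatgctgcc
The letters occur once upstream of Rpl11 and at 2 places upstream of Mrpl53, and they are not in these windows of Ndufaf5 and Atp5f1d. On either strand, 20 of 43 promoters (46.5%) of complexes II to V held them, 17 of 58 (29.3%) of the cytosolic ribosomal genes, 16 of 54 (29.6%) of the mitochondrial ribosomal genes and 9 of 33 (27.3%) of complex I. The share was 21.3% of 6372 promoters of genes passing the filter, 25.4% in the genes of shortest span and 9.22% of all 27457 promoters in the table. It was 27.6% for the lower genes (48 of 174) and 15.6% for the higher genes (19 of 122).

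Genes of cell junctions, of the basal keratinocyte and of the matrix had the opposite direction to the ribosomal genes. Junction genes join keratinocytes to each other. Of 26 passing the filter, 20 were higher with Met-ENK, 5 equal and 1 lower (Cldn4, -0.02), with a median of 0.19. Over all genes passing the filter, 45.4% were higher and 33% lower. Tjp1, the ZO-1 scaffold of tight junctions, had 13.12 with β-END(1-9), 13.77 with Met-ENK and 13.43 in control. It was the member past 1.5-fold (1 of 26, 3.85%, against 1.89% of all genes). After loess on level (0.57) or with the trend along gene span removed (0.54) it was below 1.5-fold. Vcl, vinculin, had 14.12, 14.67 and 14.24, and Ctnnd1, the p120 catenin of adherens junctions, had 15.64, 16.11 and 15.73. In these 3 genes the β-END(1-9) array was below and the Met-ENK array above control. The medians were 0.24 for adherens junction genes, 0.22 for desmosome genes, 0.39 for tight junction genes and 0.02 for the 2 gap junction genes, the last at -0.03 after loess on level. Over all measured members they were 0.09 for tight junction genes, 0.13 for desmosome genes and 0.09 for the whole junction list. Dsg3, a desmosomal cadherin, had 13.69 with β-END(1-9) and 14.13 with Met-ENK. Cdh1, E-cadherin (0.36), was higher by less than 1.5-fold, and it and Cldn4 are named after their values were seen.

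Of the 12 basal keratinocyte genes, 9 were higher with Met-ENK and 0 passed 1.5-fold, with a median of 0.23. Over all genes passing the filter, 45.4% were higher. By 1.5-fold 1.89% were higher and 2.7% lower, so 0 in a list this short is near that share. Lamb3, a chain of the laminin that anchors the epidermis, had 15.05 with β-END(1-9), 15.63 with Met-ENK and 15.37 in control. Itga6, the integrin α6 chain of hemidesmosomes, had 16.47, 16.95 and 16.46. The keratin Krt15 went the other way (-0.54), and Krt14 differed by -0.02. Dsg3 and Cdh3 belong to both this list and the junction list. Among 16 collagen, matrix and integrin genes, 13 were higher, where 45.4% of all genes were, and 1 lower, with a median of 0.25. Col5a1 had 10.04 with β-END(1-9), 10.65 with Met-ENK and 10.35 in control. It was the member past 1.5-fold (1 of 16, 6.25%, against 1.89% of all genes). After loess on level (0.578) or with the trend along span removed (0.51) it was below 1.5-fold. Itgb6 (0.53), Tnc (0.53) and Lama5 (0.49) followed. Epidermal differentiation genes, of which 6 of 22 passed the filter, had a median of 0, with Cst6 furthest apart at 12.55 with β-END(1-9), 12.10 with Met-ENK and 13.23 in control.

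**Figure D4:**
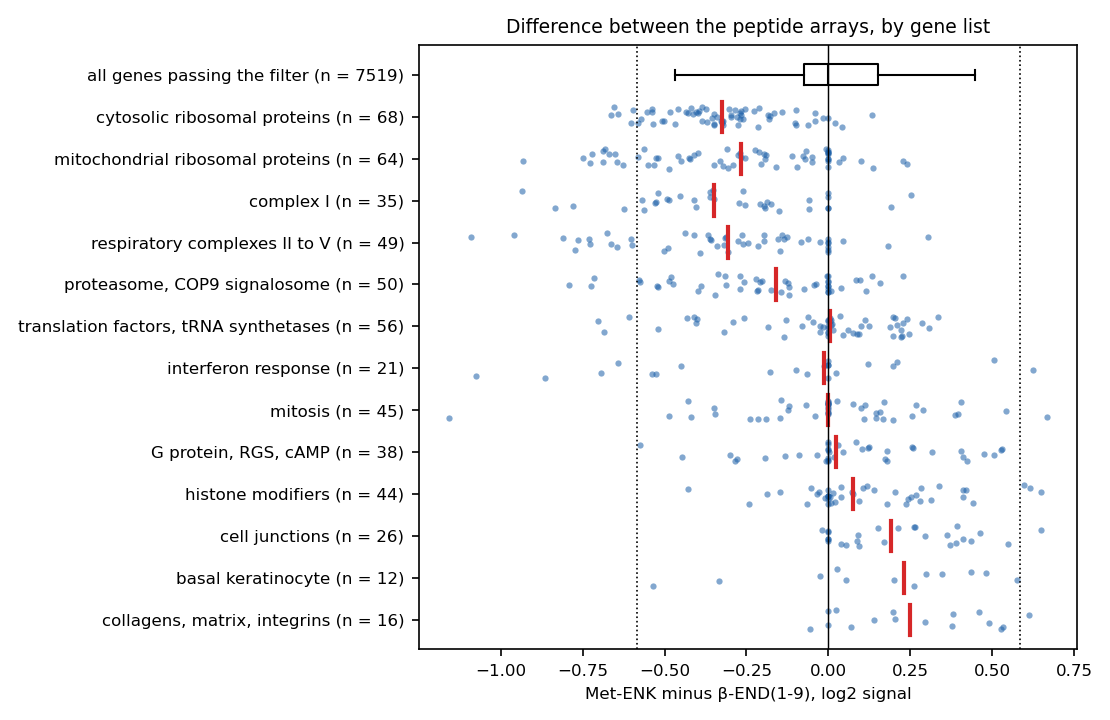
Difference between the peptide arrays for the genes of 13 lists (points, 1 per gene, medians in red), below a box for all 7519 genes (box, quartiles; whiskers, 5th to 95th percentile). Dotted lines mark 1.5-fold. Medians run from -0.35 for complex I to 0.25 for collagens, matrix and integrins, and most points of every list lie within 1.5-fold.

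Of 13 measured genes in the list of opioid receptors and Ogfr, 4 passed the filter, and 0 of these were past 1.5-fold between the peptides. Of all genes passing the filter, 1.89% were higher and 2.7% lower by that much, so 0 in a list this short is near the share of all genes. Oprm1, the µ receptor gene, had 2.73 on both peptide arrays, Oprd1, the δ receptor gene, had 6.07 with β-END(1-9) and 6.15 with Met-ENK, and Oprk1, the κ receptor gene, had 3.88 and 3.70. For Oprl1, which encodes the receptor of nociceptin, the values were 4.07 and 4.55. All these values lay within the background range, so no level can be given for these receptors. Above that range, Ogfr had 9.71 with β-END(1-9) and 9.67 with Met-ENK, Ogfrl1 had 10.80 and 10.68, and the scavenger receptor gene Ackr3 had 9.16 and 9.28. Penk had 9.49 and 9.24, and Pomc, within the background range, had 3.36 and 3.07. Pam, which amidates peptide hormones, was the gene of this set past 1.5-fold (0.64), at 11.39 with β-END(1-9), 12.03 with Met-ENK and 11.76 in control. It was below 1.5-fold after loess on level (0.582) and with the trend along span removed (0.53). Peptidases that cleave enkephalins and endorphins had 0 of 9 members past 1.5-fold, with Lnpep (0.33) and Rnpep (0.33) furthest apart.

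Genes downstream of opioid receptors gave 0 of 38 past 1.5-fold in the list of G proteins, RGS proteins and cAMP signalling, with a median of 0.02. Of all genes passing the filter, 1.89% were higher and 2.7% lower by that much. The list does not hold Gnat1 (0.99), a G protein α subunit gene, which lay within the background range on both peptide arrays. Gngt1 (-0.57), a G protein γ subunit, Pde4a (0.53), a cAMP phosphodiesterase, and the protein kinase A subunits Prkar2b (0.53) and Prkar2a (0.50) were furthest apart. On the β-END(1-9) array Pde4a lay within the background range. Of 21 genes of the EGF receptor, its ligands and ERK feedback, 15 were higher, where 45.4% of all genes were, and 2 lower. Their median was 0.06. Spry2, a feedback inhibitor of ERK signalling, was the member past 1.5-fold, at 10.81 with β-END(1-9) and in control and 10.14 with Met-ENK. Nrg1 (0.52) and Tgfa (0.51), ligands of the receptor family, lay below 1.5-fold. Immediate early genes had 0 of 20 past 1.5-fold and a median of 0.05, and chemokines and cytokines 0 of 24 with a median of 0.12, led by Lif (0.57).

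Interferon-response genes had a median of -0.01 but held 4 of 21 members (19%, against 2.7% of all genes) at least 1.5-fold lower with Met-ENK. Besides Ifi27, these were Bst2, which tethers budding virions, at 7.42 with β-END(1-9), 6.56 with Met-ENK and 6.33 in control, Ifitm2 at 10.01, 9.32 and 10.33, and Ifitm3 at 12.84, 12.19 and 12.63. Bst2, within the background range, was the one that was high on the β-END(1-9) array and not low on the Met-ENK array. Parp14 (0.63) was at least 1.5-fold higher, with its β-END(1-9) value within the background range. With the trend along span removed, Ifitm3 (-0.55) and Parp14 (0.58) were below 1.5-fold, which leaves 3 lower and 0 higher.

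Cell cycle lists had medians near 0, with single members further apart. Mitosis genes had a median of 0 over 45 genes. Cdkn3 was past 1.5-fold lower and Smc4 (0.67), a condensin subunit, past 1.5-fold higher, 1 of 45 (2.22%) each way. That is near the share of all genes passing the filter, 2.7% lower and 1.89% higher. Of 43 DNA replication genes, 24 were lower, where 33% of all genes were, and 2 (4.65%) at least 1.5-fold lower, with a median of -0.02. Rfc4, of the clamp loader, had 9.82 with β-END(1-9), 9.14 with Met-ENK and 9.98 in control, and Pole2, of DNA polymerase ε, had 7.60, 6.93 and 7.90. Both were lowest with Met-ENK, where Pole2 lay within the background range. Among CDK inhibitors and p53 targets, 3 of 26 (11.5%, against 2.7% of all genes) were at least 1.5-fold lower. These were Cdkn2d, the damage recognition gene Ddb2 (7.85 with β-END(1-9), 6.96 with Met-ENK and 7.24 in control) and Bax (10.10, 9.35 and 9.98), a mediator of apoptosis. On the Met-ENK array Cdkn2d and Ddb2 lay within the background range.

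In metabolism and stress, 5 of 37 NRF2 and glutathione genes (13.5%, against 2.7% of all genes) were at least 1.5-fold lower with Met-ENK. The list median was -0.02, and -0.10 with the trend along span removed. The metallothionein Mt2A had 15.08 with β-END(1-9), 14.16 with Met-ENK and 15.47 in control, the carbonyl reductase Cbr1 had 9.00, 8.06 and 9.58, and the peroxiredoxin Prdx2 had 14.26, 13.54 and 14.47. Mt2A, Cbr1 and Prdx2 were lowest with Met-ENK and highest in control, unlike Keap1 and Mgst3 (-0.74), whose β-END(1-9) values were at or above control. In sterol synthesis Idi1, which makes an isoprenoid building block, had 12.01 with β-END(1-9), 12.85 with Met-ENK and 12.70 in control, and Agpat2, of glycerolipid synthesis, had 11.21, 10.43 and 11.37. The list of cholesterol and fatty acid synthesis had a median of 0.05 over 40 genes. In each direction 1 of them (2.5%) was past 1.5-fold, beside 1.89% higher and 2.7% lower over all genes. Of 33 genes of peroxisomes and fatty acid oxidation, Pex7 (0.92) was at least 1.5-fold higher (3.03%, against 1.89% of all genes). At least 1.5-fold lower were Etfb (-0.79), Etfa (-0.61) and Decr1 (-0.61), 3 of 33 (9.09%, against 2.7%). Pex7 and Etfb lay within the background range on all 3 arrays. Decr1 was high on the β-END(1-9) array, with Met-ENK near control.

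Among the other lists, histone modifiers had 29 of 44 genes higher, where 45.4% of all genes were, and a median of 0.07. Past 1.5-fold were Ino80 (0.65), Kat6a (0.61) and Kdm5b (0.60), 3 of 44 (6.82%, against 1.89% of all genes). With the trend along span removed, these 3 genes were at 0.55, 0.52 and 0.51 and the list median at 0.01. Kat6a was also below 1.5-fold after quantile normalization (0.583), and Kdm5b after loess on level (0.579). The histone demethylase gene Kdm1b (1.10), within the background range, is not in this list. N-glycan genes had 2 of 57 (3.51%) past 1.5-fold in each direction, where 1.89% of all genes were higher and 2.7% lower. Man1c1 and Dolk (0.62) were higher and Dad1 and Ost4 (-0.63) lower. Man1c1 lay within the background range, Dolk was below 1.5-fold after quantile normalization (0.58), and Ost4 was below it with the trend along span removed (-0.54). Wnt4 (-0.64), Inhba (0.68), a subunit of activins, Atf6 (0.66), a sensor of unfolded proteins, Adam10 (0.59), Car12 (0.61), Dnajc30 (0.88) and Atp6v1d (-0.61) were each the member past 1.5-fold in their list. In these lists 1 member made up 2.13% to 6.25% of those passing the filter, beside 1.89% higher and 2.7% lower over all genes. Car12 was below it after quantile normalization (0.56), loess on level (0.54) and removal of the trend along span (0.53), and Atf6 (0.56) and Adam10 (0.49) under the last of these. Adam10 also lay within the background range on both peptide arrays, and Dnajc30 did on the β-END(1-9) array. Among 43 kinesins, dyneins and tubulins, Tbcb (-0.79) and Dctn6 (-0.67) were at least 1.5-fold lower (4.65%, against 2.7% of all genes). Kif3b was at least 1.5-fold higher (2.33%, against 1.89%). Inhba had its highest value on the Met-ENK array, with 16.41 with β-END(1-9), 17.09 with Met-ENK and 16.56 in control. S100, annexin and clade B serpin genes had 15 of 23 lower, where 33% of all genes were, with a median of -0.11. S100a10 (-0.58) and S100a6 (-0.52), both below 1.5-fold, led them. Of the immune markers, Trem3 (0.71) passed 1.5-fold, at 7.47 with β-END(1-9), within the background range, and 8.18 with Met-ENK.

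Gene size moved with these differences. Genomic span, the distance from start to end of a gene, had a median of 8.20 kb in the lower genes, 42.2 kb in the higher genes and 22.8 kb in all genes passing the filter. In the quintile of shortest span (up to 8.05 kb), 99 of 1504 genes (6.58%) were at least 1.5-fold lower and 15 (0.997%) at least 1.5-fold higher with Met-ENK. In the longest quintile (from 64.0 kb), 11 (0.731%) were lower and 55 (3.66%) higher. The median of Met-ENK minus control was -0.09 in the shortest quintile and 0 in the longest, against -0.04 and -0.03 for β-END(1-9). Ribosomal and respiratory genes are short, and 146 of the 216 lay in the shortest quintile. There they had a median difference of -0.33, against 0 for the 1358 other genes of that quintile, with 26 of 146 (17.8%) and 73 of 1358 (5.38%) at least 1.5-fold lower. With the trend along span removed, the medians were -0.26 for cytosolic ribosomal genes, -0.25 for mitochondrial ribosomal genes, -0.33 for complex I, -0.29 for complexes II to V, 0.14 for junction genes and 0.20 for matrix genes. The part of gene size or RNA quality in these differences was not tested.

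**Figure D5:**
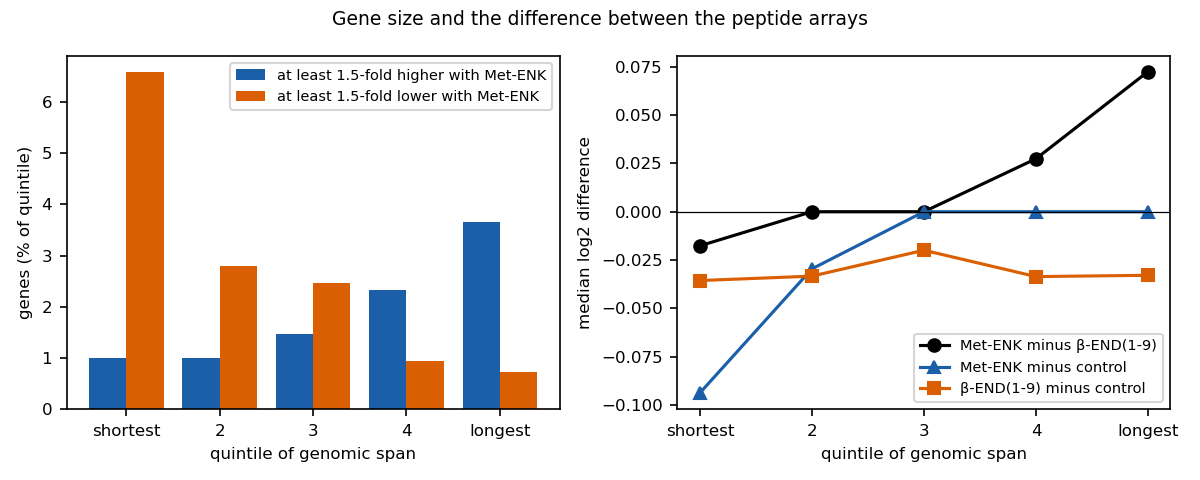
Left, share of genes at least 1.5-fold higher or lower with Met-ENK than with β-END(1-9), in 5 quintiles of genomic span. Right, median log2 difference in the same quintiles, also for each peptide against control. The share of lower genes goes from 6.58% in the shortest quintile to 0.731% in the longest, while that of higher genes goes from 0.997% to 3.66%.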

How the data were processed

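RNA from 3 cultures of FRSK cells was hybridised to 3 arrays, 1 per condition. The authors deposited log2 signals per probe set. The submitters' processing notes name Affymetrix Expression Console, Transcriptome Analysis Console and RMA, which corrects background, equalises the arrays and summarises probes. Neither versions nor the genome build of the array were given in the sources used here. Of 24834 probe sets, 1646 controls were left out. The platform annotation names 1 gene for 15049 transcript clusters, and all 15049 matched RefSeq GRCr8 by Entrez identifier. The remaining 8139 are unnamed here. For 10 genes with several probe sets the one of highest mean was used. Python 3.11.15, pandas 2.3.3 and statsmodels 0.14.6 computed differences, counts at 1.5-fold and list medians. The code for the counts was run on simulated arrays with 2-fold changes and little noise. That run did not cover the list medians, the comparison with control or the removal of the span trend. The number of arrays limits the precision, and no test between groups was possible. Named genes were the 15 per direction with the largest difference, all at 2-fold with a peptide array above background, the 10 per direction with both peptide arrays above background, in each of 44 lists up to 4 members plus any past 1.5-fold, and fixed opioid genes and Krt14. Members and lists were chosen with earlier results of these data known. Alternatives were other scalings, filters, thresholds and removal of the trend along span.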

Additional observations from a re-analysis of the deposited data

Results flagged for a closer look

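For 7 of the 30 genes furthest apart between the peptides, the 2 peptide arrays lay on opposite sides of the control array, each by at least 0.29. With 1 array per condition this opposition was not tested. Kdm1b (difference 1.10) was 0.57 above control with Met-ENK and at -0.53 from it with β-END(1-9). Kif3b (1.06) was at 0.46 and -0.60, Sumf1 (0.93) at 0.32 and -0.61, and Zfat (0.93) at 0.41 and -0.52. In the other direction Adat1 (-1.30) was at -0.78 with Met-ENK and 0.52 with β-END(1-9), Chrm3 (-1.22) at -0.77 and 0.45, and Fam241b (-1.04) at -0.34 and 0.70. Kdm1b, Sumf1, Zfat and Chrm3 stayed within the background range on both peptide arrays.

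Transcript clusters without a gene name here entered no comparison of the report. Of 3201 such clusters at or above the level filter, 77 (2.41%) were higher and 105 (3.28%) lower with Met-ENK than with β-END(1-9) by 1.5-fold or more. On the Met-ENK array 24 of them were at least 1.5-fold above both other arrays, and on the β-END(1-9) array 11 were. Below both other arrays by that much were 75 on the Met-ENK array and 18 on the β-END(1-9) array.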

How the results depend on the processing

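The counts of 142 higher and 203 lower genes became 377 and 459 without a filter on level and 6 and 16 at 2-fold, and 91 higher genes remained in the count with both peptide arrays above the highest background probe set. Higher genes with the Met-ENK array away from control numbered 23 after quantile normalization against 15 as deposited. Those with the β-END(1-9) array away numbered 34 against 42. With the array further from control taken as the one that moved, whatever the other did, 52 higher genes went to Met-ENK, 90 higher and 29 lower genes to β-END(1-9). The medians of the 10 lists described most fully kept their sign under each scaling, with the trend along span removed, as means and over all measured members, but small medians moved by over 1.5 times: junction genes from 0.19 to 0.09 over all measured members, basal keratinocyte genes from 0.23 to 0.15 after loess, histone modifiers from 0.07 to 0.01 with the span trend removed, and EGF receptor genes from 0.06 to 0.03 after loess and 0.11 as a mean. With that trend removed, the Krt14 difference (0.0427) and the Ogfr difference (0.0017) changed sign and 17 of 113 named genes past 1.5-fold were below it, among them Pam (0.53), Tjp1 (0.54), Col5a1 (0.51), Adam10 (0.49), Rpl34 (-0.53), Rpl35 (-0.56) and Rpl38 (-0.52). Of the 113, 4 were below 1.5-fold after quantile normalization, 5 after loess on level and 1 after centring each array on its median. No paired analysis was possible because each condition has 1 array. There is no replicate to leave out, and genes near the filter limit lie within the range of background.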
